A study of Mus musculus with 32 samples.

Results

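The transcripts of 10 genes were followed through the first wave of spermatogenesis in mice. These genes encode cyclins A1, A2, B1, B2, B3, E1 and E2 (Ccna1, Ccna2, Ccnb1, Ccnb2, Ccnb3, Ccne1 and Ccne2), the kinases CDK1 and CDK2 (Cdk1 and Cdk2) and the phosphatase CDC25C (Cdc25c). They were chosen by symbol, each symbol matched 1 Ensembl gene, and all 10 were among the 20368 genes of the juvenile gene table and in the adult table. Expression was measured by poly-A RNA-seq in germ cells from both testes of single C57BL/6J male mice, with 3 mice at 8 days post partum (dpp) and 5 mice at each of 10, 12, 14, 16 and 18 dpp, 28 mice in all. The paper collected 5 mice at 8 dpp as well and left out those that matched their age group poorly. The spread at 8 dpp is thus that of the mice kept. A further 4 samples were pachytene and diplotene spermatocytes of adult C57BL/6J males, each sample pooled from 6 mice of 9 weeks and separated by size with sedimentation at unit gravity (STA-PUT). No mouse carried an engineered allele or received a treatment according to the labels. Values are TPM, the share of a gene among all transcripts scaled to the same total in each sample, which are already corrected for transcript length and keep no read number, so the depth of each sample is unknown and errors are the spread between mice.

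A cyclin binds a cyclin-dependent kinase (CDK) and switches it on, and the kinase falls silent when the cyclin is destroyed. In mitotic cells E cyclins with CDK2 open S phase, cyclin A2 acts in S phase and G2, and B cyclins with CDK1 drive entry into mitosis, after CDC25 phosphatases remove the inhibitory phosphates that WEE1 and PKMYT1 place on the kinase. The male germ line has its own versions: cyclin A1 is needed to leave meiotic prophase, cyclin B3 is a cyclin of early meiotic prophase encoded on the X chromosome, and CDK2 sits on the telomeres and crossover sites of spermatocyte chromosomes.

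The libraries were checked against marker genes before the members were read. The 6 germ cell markers summed to between 841 and 1123 TPM at 8 dpp and between 2785 and 3035 TPM at 18 dpp, and all 6 reached 3 TPM at every juvenile age. All 8 Sertoli cell markers were also above 3 TPM at every juvenile age, and their sum was between 7591 and 8611 TPM in the mice of 8 dpp and between 3577 and 4740 TPM in those of 18 dpp. The 6 spermatogonium markers summed to between 838 and 968 TPM at 8 dpp and between 390 and 560 TPM at 18 dpp. In the adult samples the Sertoli cell sum was between 321 and 470 TPM, while the 6 spermatid markers summed to between 862 and 1171 TPM, against at most 6.44 TPM in any juvenile mouse. The labelled adult spermatocytes thus held transcripts of spermatid marker genes such as Prm2 (270 ± 25.8 TPM, SD, n = 4), which encodes a protamine. The paper calls these fractions highly enriched, and it states that late prophase cells transcribe mRNAs kept for the haploid phase. Whether these transcripts came from spermatids was not tested. These are bulk samples, so fewer cells of a type and less RNA per cell cannot be told apart, and the part of any other cell type in the changes below was not tested.

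Summed over the 10 members, the level was 447 ± 17.5 TPM in the mice of 8 dpp (SD, n = 3), reached 627 ± 73.7 TPM in those of 18 dpp (n = 5) and was 862 ± 26.3 TPM in adult spermatocytes (n = 4). Differences among the 6 ages were tested with limma across all 20368 genes, on log2(TPM + 1), with Benjamini-Hochberg adjusted p-values under 0.05. By this test 9 of the 10 members differed among the ages, where 77.6% of all genes did, and Ccne1 did not pass (adjusted p = 0.0797). From 8 to 18 dpp 6 members rose (Ccna1, Ccnb2, Ccne1, Ccne2, Cdk1 and Cdk2), where 31.8% of all genes rose. Over the same interval 3 members fell (Ccna2, Ccnb1 and Cdc25c), where 36.3% of all genes fell, and Ccnb3 did not pass. The median log2 fold change from 8 to 18 dpp was 0.37 over the members and -0.09 over all genes. Scaling the mice by median-of-ratios factors moved the median of all genes from -0.09 to 0.05.

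The members did not move evenly over the 6 ages. Between 8 and 10 dpp no member passed, with limma giving 0 at an unadjusted p under 0.05 as well, and 1.20% of all genes passed. Between 10 and 12 dpp 2 members rose (Ccnb3 and Cdk1, 12.0% of all genes) and 2 fell (Ccnb1 and Cdc25c, 9.39% of all genes), but without 12 dpp mouse 4 the count dropped from 4 to 2. Between 12 and 14 dpp none passed and none had an unadjusted p under 0.05, with 0.172% of all genes passing. Between 14 and 16 dpp 2 rose (Ccna1 and Ccnb2, 12.7% of all genes) and 1 fell (Ccnb1, 11.3% of all genes). Between 16 and 18 dpp 4 rose (Ccna1, Ccnb2, Ccne2 and Cdk1, 23.4% of all genes) and 2 fell (Ccna2 and Cdc25c, 30.6% of all genes), but without 16 dpp mouse 3 the count dropped from 6 to 3.

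**Figure D1:**
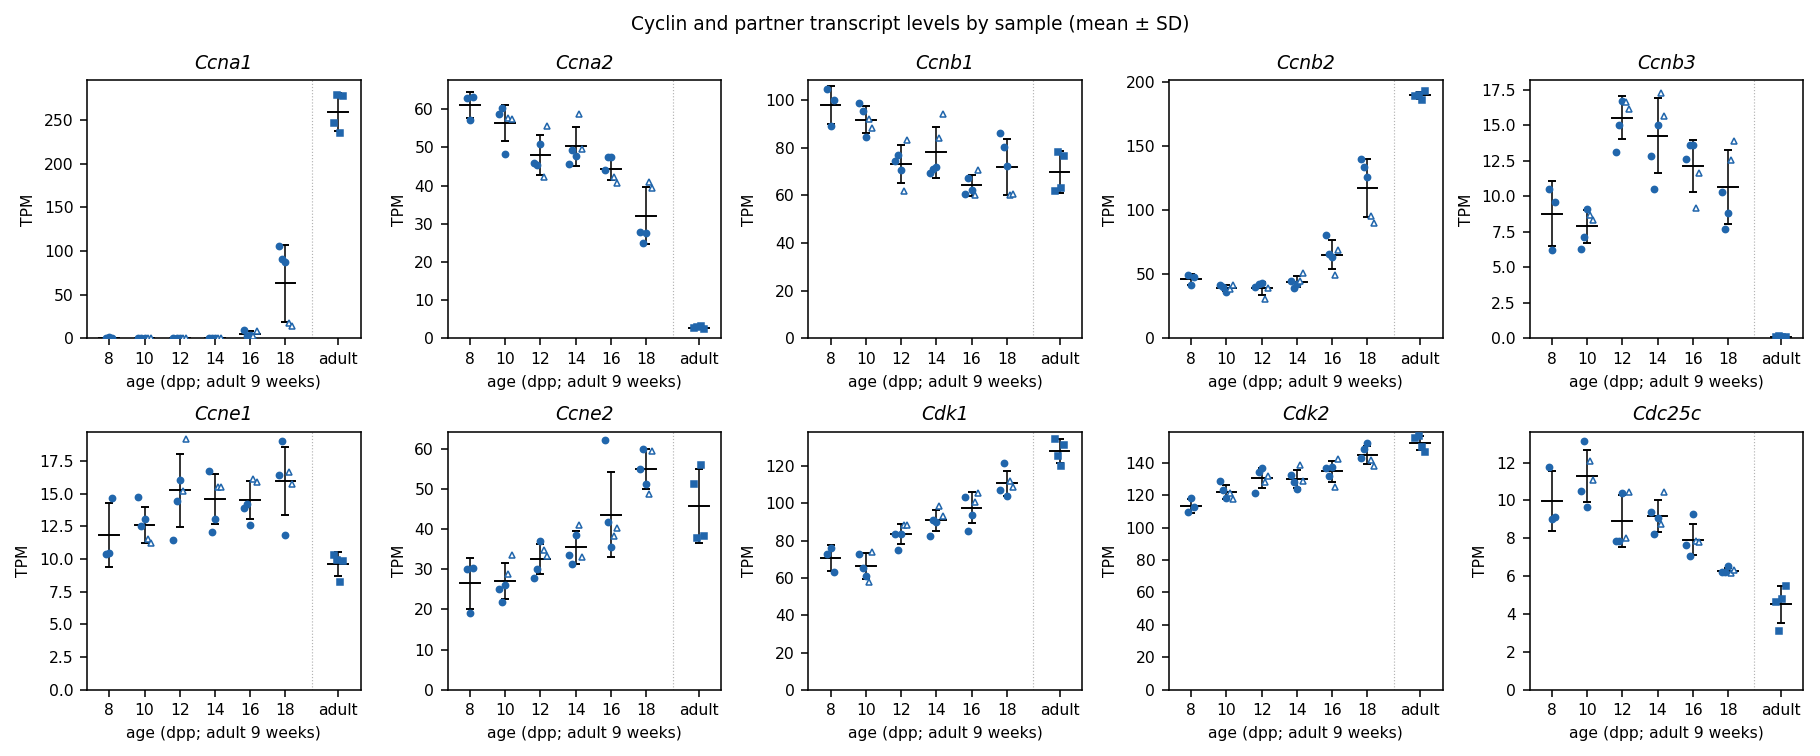
TPM of each of the 10 genes (vertical axes, from 0) against age in dpp, with adult spermatocytes at the right of the dotted line. Filled circles are mice 1 to 3, open triangles mice 4 and 5, squares adult samples, and bars the mean ± SD. Ccna1 stays at or under 1.18 TPM up to 14 dpp and reaches 105.5 TPM at 18 dpp, while Ccna2 falls, and at 18 dpp the open triangles stand apart for both.

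Among the A cyclins, Ccna1 was the member with the widest range. The gene lies on chromosome 3 at 55045469 to 55055501 on the minus strand (GRCm38). It overlaps 4931419H13Rik, annotated on the opposite strand, whose level was not analysed here, so reads of the 2 genes cannot be told apart where they overlap. Its level was 0, 1.18 and 0.15 TPM in the 3 mice of 8 dpp and stayed between 0.19 and 0.99 TPM in all 15 mice of 10, 12 and 14 dpp, under the 3 TPM at which the authors call a gene expressed. At 16 dpp the 5 mice had 9.18, 2.39, 4.22, 2.96 and 8.87 TPM, all but 2 of them above 3 TPM and all above every younger mouse. At 18 dpp mice 1 to 3 had 105.5, 90.6 and 87.1 TPM and mice 4 and 5 had 17.5 and 14.0 TPM, again all above every mouse of 16 dpp. The 4 adult samples had 246, 278, 236 and 278 TPM, above all juvenile mice.

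Ccna1 rose by a log2 fold change of 1.95 ± 0.42 (SE) from 14 to 16 dpp (adjusted p = 0.00113) and by 3.01 ± 0.42 from 16 to 18 dpp (adjusted p = 3.47e-06). Both values are on the log2(TPM + 1) scale, which understates changes from levels near 0. Mice 1 to 3 and mice 4 and 5 differed at 18 dpp, so both sets were also tested apart, the second after seeing the data. The rise from 16 to 18 dpp was 4.07 within mice 1 to 3 (adjusted p = 1.77e-07) and 1.41 within mice 4 and 5 (adjusted p = 0.0932). The Sertoli cell sum at 18 dpp moved with this split, at 3654, 3577 and 3734 TPM in mice 1 to 3 and 4740 and 4709 TPM in mice 4 and 5, as did the spermatogonium sum, at 390, 407 and 408 TPM against 533 and 560 TPM. The split was wider in the 5 peritubular cell markers (586, 524 and 554 against 1006 and 1034 TPM) and the 6 Leydig cell markers (184, 186 and 169 against 472 and 325 TPM). The macrophage sum was at most 43.7 TPM in mice 1 to 3 and at least 65.8 TPM in mice 4 and 5, and the endothelial cell sum at most 37.9 and at least 55.0 TPM. The germ cell, red blood cell and spermatid sums overlapped between these mice. Mice 1 to 3 and mice 4 and 5 of 14 dpp also stood apart in some sums. There the Sertoli cell sum was 7344, 7382 and 7374 against 6456 and 6020 TPM. The peritubular cell sum was 1097, 1409 and 1161 against 1632 and 1879 TPM. The germ cell, spermatogonium and endothelial cell sums of 14 dpp were also higher in mice 4 and 5, and the other sums overlapped. A sum can hide its single markers. Over all mice of 18 dpp the germ cell marker Mael had 496 to 850 TPM (median 810) and Dazl 284 to 411 TPM (median 317). Single germ cell markers were not compared between mice 1 to 3 and mice 4 and 5. The part of these cell types in the difference was not tested.

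Ccna2, the A cyclin of mitotic cells, lies on the same chromosome at 36564865 to 36572150 on the minus strand. It had 63.0, 57.2 and 63.2 TPM in the mice of 8 dpp, and at 18 dpp 27.8, 24.9 and 27.6 TPM in mice 1 to 3 and 41.0 and 39.3 TPM in mice 4 and 5. Every mouse of 18 dpp was below every mouse of 8 dpp, and the 3 mice of 18 dpp with most Ccna1 had least Ccna2. The change from 8 to 18 dpp was a log2 fold change of -0.93 ± 0.12 (adjusted p = 1.92e-07). Of the neighbouring ages, only 16 and 18 dpp differed (-0.48 ± 0.11, adjusted p = 0.000512), by -0.77 within mice 1 to 3 and by -0.05 within mice 4 and 5 (adjusted p = 0.857). In adult spermatocytes it was 2.61, 3.07, 3.18 and 2.34 TPM. Its 3′ end overlaps Exosc9 on the opposite strand, and no strand-specific protocol is given in the sources used here, so reads of the 2 genes cannot be told apart there. Exosc9 had 73.5 ± 7.67 TPM (n = 3) at 8 dpp and 75.2 ± 5.41 TPM (n = 5) at 18 dpp.

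The balance of the A cyclins moved towards Ccna1 from 14 to 18 dpp, and passed to it in mice 1 to 3 of 18 dpp but not in mice 4 and 5. Of the summed A cyclin TPM, Ccna1 made up 1.06 ± 0.468% at 14 dpp, then 10.9 ± 6.18% at 16 dpp and 57.9 ± 27.3% in the mice of 18 dpp (n = 5 each), and 98.9 ± 0.204% in adult spermatocytes (n = 4). The mean of 18 dpp pools 79.1, 78.4 and 76.0% in mice 1 to 3 with 29.9 and 26.2% in mice 4 and 5. Ccna1 was above Ccna2 in 0 of 5 mice at 16 dpp, in 3 of 5 mice at 18 dpp and in 4 of 4 adult samples. Log2 ratios of 2 genes were taken on TPM + 1, here and below. That of Ccna1 to Ccna2 was 5.86 higher at 18 than at 10 dpp. It was 2.12 higher at 16 than at 14 dpp and 3.49 higher at 18 than at 16 dpp. The mice did not overlap in any of these 3 comparisons, and each had p = 0.00794 in a two-sided exact permutation test, the smallest that 5 against 5 mice can give (adjusted p = 0.0159 over 24 ratio tests). At 12 against 10 dpp the ratio differed by 0.26 ± 0.20 (exact permutation p = 0.254). Ccna1 was at most 0.99 TPM in the mice of 10, 12 and 14 dpp, so the added 1 weighs heavily in the ratios of these ages. The comparison of 12 with 10 dpp thus rests on Ccna1 levels under 1 TPM.

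**Figure D2:**
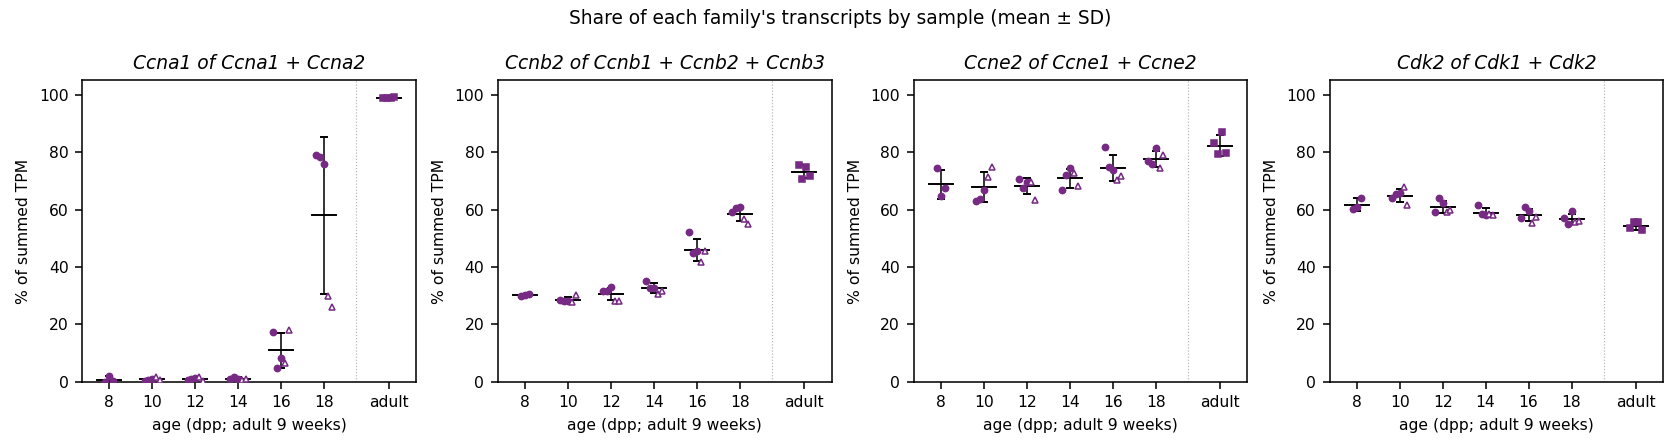
Share of a family's summed TPM (vertical axes, percent) held by Ccna1, Ccnb2, Ccne2 and Cdk2 in each sample, by age in dpp and in adult spermatocytes. Filled circles are mice 1 to 3, open triangles mice 4 and 5, squares adult samples, and bars the mean ± SD. Ccna1 goes from 1.06% at 14 dpp to 98.9% in adult cells, Ccnb2 from 32.6% to 73.1%, while Cdk2 stays between 52.8% and 67.7% in every sample.

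Among the B cyclins, Ccnb2 gained on Ccnb1, the main partner of CDK1 at mitotic entry. Ccnb1 (chromosome 13, 100778650 to 100786570, minus strand) started from 97.8 ± 8.06 TPM at 8 dpp (n = 3). The following ages, 10 to 18 dpp, had means of 91.6 ± 5.65, 73.2 ± 7.93, 78.0 ± 10.7, 64.1 ± 4.53 and 71.9 ± 11.6 TPM (n = 5 each). The 4 adult samples lay between 61.6 and 78.3 TPM, within the range of the mice of 16 and 18 dpp. Ccnb1 fell from 10 to 12 dpp (-0.32 ± 0.10, adjusted p = 0.0166, and 0.0610 without 12 dpp mouse 4) and between 8 and 18 dpp (-0.45 ± 0.11, adjusted p = 0.000828). With median-of-ratios factors the second change was -0.28 and no longer passed (adjusted p = 0.0536). The fall from 14 to 16 dpp (-0.27 ± 0.10, adjusted p = 0.0418) did not pass once 14 dpp mouse 4 or 5 or 16 dpp mouse 1, 3 or 4 was left out (adjusted p from 0.0674 to 0.145), nor with median-of-ratios factors (0.188). At 14 dpp mice 1 to 3 had 69.1, 70.95 and 71.8 TPM and mice 4 and 5 had 84.0 and 93.9 TPM. At 18 dpp mice 1 to 3 had 85.9, 80.4 and 72.3 TPM and mice 4 and 5 had 60.3 and 60.4 TPM.

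Ccnb2, a second CDK1 partner, lies on chromosome 9 at 70407692 to 70421547 on the minus strand. It had 49.2, 41.4 and 48.2 TPM in the mice of 8 dpp and between 30.7 and 50.9 TPM in the mice of 10 to 14 dpp. At 16 dpp the 5 mice had 80.5, 65.6, 63.6, 49.3 and 68.7 TPM, all but mouse 4 above every younger mouse. At 18 dpp mice 1 to 3 had 139.9, 134.1 and 126.0 TPM and mice 4 and 5 had 95.7 and 90.4 TPM, all above every mouse of 16 dpp, and the adult samples had between 187 and 194 TPM. Ccnb2 rose from 14 to 16 dpp (0.54 ± 0.12, adjusted p = 0.00142) and from 16 to 18 dpp (0.82 ± 0.12, adjusted p = 4.79e-06). The first rise was 0.71 within mice 1 to 3 (adjusted p = 4.15e-05) and 0.28 within mice 4 and 5 (adjusted p = 0.312). The last rise was 0.93 within mice 1 to 3 (adjusted p = 7.40e-07) and 0.67 within mice 4 and 5 (adjusted p = 0.0675).

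The log2 ratio of Ccnb2 to Ccnb1 went from -1.19 ± 0.0695 at 10 dpp through 0.02 ± 0.246 at 16 dpp to 0.69 ± 0.0821 at 18 dpp (SD, n = 5 each). The 5 mice of 18 dpp lay between 0.57 and 0.79, so mice 1 to 3 and mice 4 and 5, far apart in Ccna1, were close in this ratio. The increase from 10 to 18 dpp was 1.88 ± 0.05 (SE; exact permutation p = 0.00794, adjusted p = 0.0159), and the mice did not overlap. Ccnb2 was above Ccnb1 in 0 of 5 mice at 14 dpp, in 2 of 5 at 16 dpp, in 5 of 5 at 18 dpp and in 4 of 4 adult samples.

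Ccnb3, on chromosome X at 6979652 to 7041619 on the minus strand, followed another course and was highest in the middle of the series. Its 5 mice of 10 dpp had 6.30, 7.13, 9.08, 8.67 and 8.33 TPM and its 5 mice of 12 dpp had 13.1, 15.1, 16.7, 16.6 and 16.1 TPM, without overlap. This rise was a log2 fold change of 0.90 ± 0.15 (adjusted p = 8.78e-05), and 0.92 within mice 1 to 3 and 0.87 within mice 4 and 5. From there the means were 14.3 ± 2.64, 12.1 ± 1.84 and 10.7 ± 2.58 TPM at 14, 16 and 18 dpp (n = 5 each), and no step between neighbouring ages passed (adjusted p from 0.309 to 0.835). At 18 dpp mice 1 to 3 had 10.3, 7.68 and 8.86 TPM and mice 4 and 5 had 12.6 and 13.9 TPM. In adult spermatocytes the gene had 0.13, 0.19, 0.11 and 0.08 TPM. Between 8 and 18 dpp the change of 0.25 ± 0.18 did not pass (adjusted p = 0.204), but with median-of-ratios factors it was 0.41 and passed (adjusted p = 0.0235).

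Against both other B cyclins, Ccnb3 gained from 10 to 12 dpp, by 1.22 ± 0.16 on the log2 ratio to Ccnb1 and by 0.93 ± 0.17 on that to Ccnb2 (exact permutation p = 0.00794 for each, adjusted p = 0.0159). Against Ccnb2 it then lost 0.75 ± 0.12 from 14 to 16 dpp and 1.01 ± 0.27 from 16 to 18 dpp, with the same p-values and no overlap between mice. Against Ccnb1 neither later step passed (exact permutation p = 0.619 and 0.222). Of the summed B cyclin TPM, Ccnb3 held 5.72 ± 1.06% at 10 dpp, 12.3 ± 1.92% at 12 dpp, 5.60 ± 2.21% at 18 dpp and 0.0490 ± 0.0171% in adult cells. At most it was a minor part of the B cyclin transcripts, 15.3% in the mouse with the highest share.

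**Figure D3:**
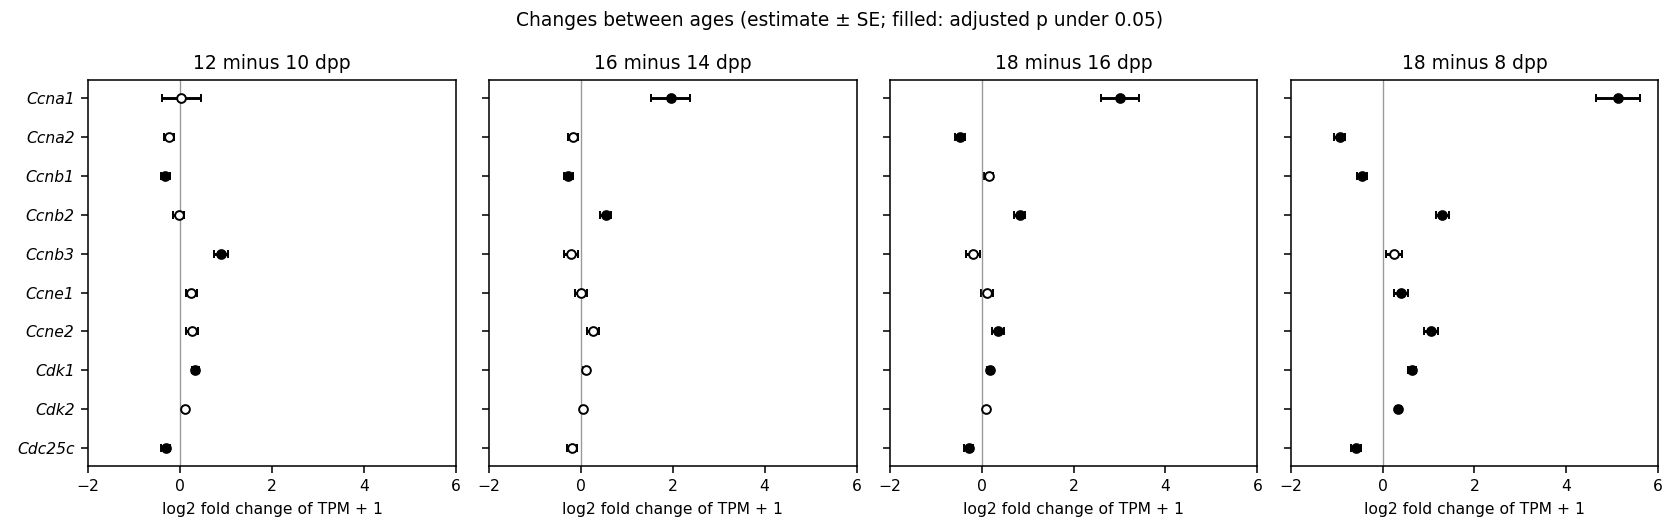
Log2 fold changes of TPM + 1 (horizontal axes) for the 10 genes over 4 of the age comparisons, as estimate ± SE, with filled points for adjusted p-values under 0.05. Ccnb3 stands out to the right from 10 to 12 dpp (0.90), Ccna1 from 14 to 16 dpp (1.95) and from 16 to 18 dpp (3.01).

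Promoter sequences were available for 7 of the 10 members (Ccna1, Ccnb1, Ccnb2, Ccnb3, Ccne1, Cdk1 and Cdk2) in a RefSeq table on GRCm38.p6. Promoters of genes used in G2 and mitosis often hold CCAAT boxes, which bind the factor NF-Y, and a cell cycle homology region, TTTGAA. The 120 bases before the RefSeq transcription start are shown for the 2 cyclins that rose from 14 to 16 dpp, for Ccnb1 and for Cdk1. Capitals mark CCAAT or TTTGAA on either strand (ATTGG and TTCAAA on the reverse), which do not overlap each other, and each sequence reads 5′ to 3′ on the minus strand of the genome. They lie at chr3:55055056-55055175, chr9:70421555-70421674, chr13:100786487-100786606 and chr10:69352913-69353032. The gene spans given in this report come from another annotation. The Ccna1 window lies wholly inside the span of Ccna1 (55045469 to 55055501), and those of Ccnb1 and Cdk1 lie partly inside theirs.
Ccna1: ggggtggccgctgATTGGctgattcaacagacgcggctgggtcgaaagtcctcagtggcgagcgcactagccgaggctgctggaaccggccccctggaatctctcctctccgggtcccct
Ccnb2: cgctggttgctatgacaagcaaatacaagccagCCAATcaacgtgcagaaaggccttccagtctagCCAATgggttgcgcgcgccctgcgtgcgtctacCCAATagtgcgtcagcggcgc
Ccnb1: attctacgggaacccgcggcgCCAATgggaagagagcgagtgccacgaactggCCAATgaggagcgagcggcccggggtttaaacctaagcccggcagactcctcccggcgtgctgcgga
Cdk1: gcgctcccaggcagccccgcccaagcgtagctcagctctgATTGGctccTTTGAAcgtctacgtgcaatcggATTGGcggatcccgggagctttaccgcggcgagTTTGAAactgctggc

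Over the whole 300 bases of each entry (250 before the start and 50 after it), CCAAT was found 3 times in Ccnb2, 3 times in Cdk1, 2 times in Ccnb1 and once in Ccna1 and Cdk2, and not in Ccnb3 or Ccne1. TTTGAA was found 2 times each in Ccnb2 (outside the 120 bases shown) and Cdk1, and in none of the other 5. Of all 32851 promoters in the table, 37.4% held CCAAT, 17.9% held TTTGAA and 6.95% held both. These matches describe the letters of the windows, and their relation to the levels was not tested.

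Of the 2 E cyclins, Ccne2 had the larger change from 8 to 18 dpp. Ccne1 (chromosome 7, 38097984 to 38107534, minus strand) had 11.8 ± 2.44 TPM at 8 dpp (n = 3), 15.9 ± 2.62 TPM at 18 dpp (n = 5) and 9.59 ± 0.906 TPM in adult spermatocytes (n = 4), and juvenile mice of all ages overlapped. Its rise from 8 to 18 dpp (0.40 ± 0.15, adjusted p = 0.0166) did not pass without 8 dpp mouse 1 (adjusted p = 0.0935) or mouse 2 (0.0884), or within mice 1 to 3 (0.0616). Ccne2, whose protein also partners CDK2 and acts in male meiotic prophase, lies on chromosome 4 at 11191351 to 11204779 on the plus strand. It had 30.1, 19.1 and 30.2 TPM in the mice of 8 dpp and 55.0, 59.8, 51.2, 48.7 and 59.5 TPM in those of 18 dpp, without overlap, and the adult samples lay between 37.7 and 55.9 TPM. This rise was a log2 fold change of 1.05 ± 0.16 (adjusted p = 1.28e-06). Of its steps between neighbouring ages, only that from 16 to 18 dpp passed (0.35 ± 0.14, adjusted p = 0.0311), and it did not pass without any 1 of 7 of the 10 mice of these ages (16 dpp mice 2 to 5 and 18 dpp mice 1, 2 and 5; adjusted p from 0.0523 to 0.0968).

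Ccne2 was above Ccne1 in every sample. Its share of the E cyclin TPM was 67.9 ± 5.16% at 10 dpp, 77.5 ± 2.68% at 18 dpp and 82.3 ± 3.71% in adult cells. The log2 ratio of Ccne2 to Ccne1 was 0.69 ± 0.18 higher at 18 than at 10 dpp, with overlapping mice (exact permutation p = 0.0159, adjusted p = 0.0254). This passed without 10 dpp mouse 5 or 18 dpp mouse 4 but not without any 1 of the other 8 mice (adjusted p = 0.0508). Part of Ccne2 overlaps Ints8 on the opposite strand, which had 52.3 ± 6.22 TPM at 8 dpp and 56.8 ± 6.22 TPM at 18 dpp.

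The kinases were present throughout. Cdk1 (chromosome 10, 69335146 to 69352938, minus strand) averaged 70.7 ± 6.82 TPM at 8 dpp (n = 3), then 66.3 ± 7.02, 83.7 ± 5.45, 91.0 ± 5.67, 97.8 ± 8.28 and 111 ± 6.75 TPM over the ages 10 to 18 dpp (n = 5 each), and 128 ± 6.42 TPM in adult spermatocytes (n = 4). The mice of 18 dpp (104 to 122 TPM) and those of 8 dpp (63.1 to 76.2 TPM) did not overlap, and the rise was 0.64 ± 0.08 (adjusted p = 1.53e-07). It rose from 10 to 12 dpp (0.34 ± 0.07, adjusted p = 0.00130) and from 16 to 18 dpp (0.18 ± 0.07, adjusted p = 0.0372), and the second did not pass without 16 dpp mouse 2 (adjusted p = 0.133) or mouse 3, or 18 dpp mouse 2 or mouse 4. Unlike the A and B cyclins, Cdk1 did not set mice 4 and 5 apart at 18 dpp, where they had 112 and 109 TPM and mice 1 to 3 had 107, 122 and 104 TPM.

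Cdk2 was the most abundant member at 8 dpp, in TPM, and had the smallest change of the 9 members that passed. It lies on chromosome 10 at 128697939 to 128705031 on the minus strand. It had 113 ± 4.26 TPM at 8 dpp (n = 3), 144 ± 5.59 TPM at 18 dpp (n = 5) and 152 ± 4.56 TPM in adult cells (n = 4), and rose by 0.35 ± 0.05 from 8 to 18 dpp (adjusted p = 1.51e-06), while no step between neighbouring ages passed. The log2 ratio of Cdk2 to Cdk1 fell by 0.49 from 10 to 18 dpp (SE 0.08, exact permutation p = 0.00794, adjusted p = 0.0159, no overlap), yet Cdk2 stayed above Cdk1 in every sample.

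Behind this small change in the total, the shares of the 2 transcripts of Cdk2 changed. They encode a short and a long kinase (ENSMUST00000026415 with 7 exons and ENSMUST00000026416 with 8), and their coding sequences differ by 1 exon of 144 bases, 48 codons in frame. It is exon 6 of the long transcript, coding throughout, at chr10:128699976-128700119 on the minus strand of GRCm38. It is shown in capitals, between the 15 bases of the exons on either side, because the 2 coding sequences differ by it. Reads over this exon were not analysed.
Cdk2 exon 6: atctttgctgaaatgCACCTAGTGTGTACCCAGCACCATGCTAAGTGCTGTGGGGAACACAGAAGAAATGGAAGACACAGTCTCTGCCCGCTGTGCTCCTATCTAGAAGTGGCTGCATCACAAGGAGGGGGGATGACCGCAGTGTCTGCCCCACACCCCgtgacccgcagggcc

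The short form had means of 101 ± 3.03, 109 ± 6.81, 104 ± 7.23, 92.0 ± 6.87 and 70.4 ± 9.45 TPM over the ages 10 to 18 dpp (SD, n = 5 each). The long form had 21.0 ± 3.45, 21.1 ± 3.17, 25.7 ± 3.83, 42.5 ± 6.39 and 74.1 ± 13.7 TPM at the same ages. At 18 dpp the long form made up 56.3, 57.4 and 56.9% of Cdk2 TPM in mice 1 to 3 and 41.3 and 43.6% in mice 4 and 5, and no mouse of 8 to 14 dpp was above 28.7%. From the 8 youngest mice (8 and 10 dpp) to the 10 oldest (16 and 18 dpp) the share rose from 19.6 to 41.3%, by 21.7 ± 4.33 points (SE, limma, adjusted p = 0.00234 over 23830 transcripts). The ages within each group were pooled with no age term, and the mean share was 31.6% at 16 dpp and 51.1% at 18 dpp. This SE thus also holds differences between ages. Changes that passed with at least 20 points made up 2.30% of all transcripts tested. Of 17 transcripts of 6 members in this test (Ccna2, Ccnb1, Ccnb3, Ccne2, Cdk1 and Cdk2), these 2 Cdk2 transcripts were called. Cdk2 has only these 2 transcripts here, so their shares mirror each other and the 2 calls are 1 result. Without 18 dpp mouse 2 the change was 19.96 points, just short of the limit, and both calls were lost. The transcript Ccne2 ENSMUST00000029866 passed the p-value (adjusted p = 0.00601) with a smaller change, from 5.73 to 13.7% of its gene. The division of reads between transcripts of 1 gene is an estimate of RSEM, and the adult table gives genes and not transcripts. The gene Pmel, which overlaps Cdk2 on the opposite strand, had 4.82 ± 0.215 TPM at 8 dpp and 11.0 ± 1.49 TPM at 18 dpp.

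**Figure D4:**
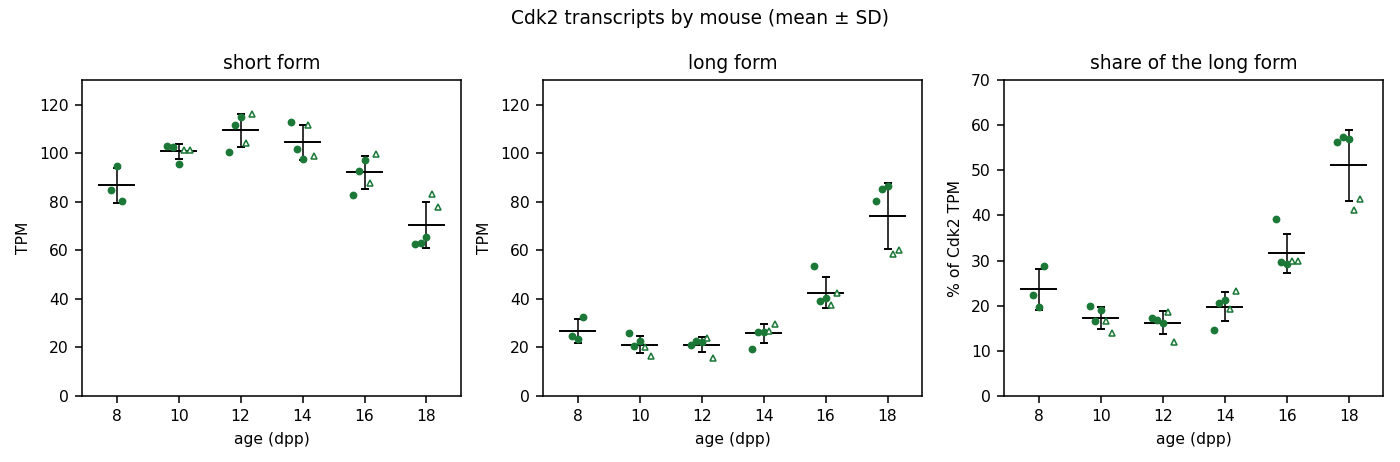
TPM of the short and the long Cdk2 transcript and the share of the long one in percent (vertical axes, from 0) by age in dpp. Filled circles are mice 1 to 3, open triangles mice 4 and 5, and bars the mean ± SD. The short form goes from a mean of 109 TPM at 12 dpp to 70.4 TPM at 18 dpp and the long form from 21.1 to 74.1 TPM.

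Cdc25c, the phosphatase that activates CDK1 with cyclin B at mitotic entry, lies on chromosome 18 at 34732993 to 34751533 on the minus strand. It had 11.8, 9.03 and 9.11 TPM in the mice of 8 dpp and 6.21, 6.23, 6.52, 6.18 and 6.35 TPM in those of 18 dpp, the narrowest spread of any member at that age, and 4.63, 3.12, 4.79 and 5.48 TPM in adult cells. It overlaps Gm3550 on the opposite strand, which had at most 0.55 TPM in any juvenile mouse. The fall from 8 to 18 dpp was -0.58 ± 0.12 (adjusted p = 7.52e-05). The steps from 10 to 12 dpp (-0.31 ± 0.10, adjusted p = 0.0244) and from 16 to 18 dpp (-0.29 ± 0.10, adjusted p = 0.0177) were less firm. The first did not pass without 10 dpp mouse 2 or 4 or 12 dpp mouse 1, 2 or 4, and the second did not pass without 16 dpp mouse 3 (adjusted p = 0.0615) or with median-of-ratios factors (adjusted p = 0.241).

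Within each sample the members can be set in order of TPM. At 8 dpp the order of the means from high to low was Cdk2, Ccnb1, Cdk1, Ccna2, Ccnb2, Ccne2, Ccne1, Cdc25c, Ccnb3 and Ccna1. There Cdk1 and Ccna2 overlapped between mice, with Ccna2 (63.17 TPM) above Cdk1 (63.06 TPM) in mouse 3. Ccne1, Cdc25c and Ccnb3 (11.8 to 8.79 TPM) overlapped as well. In adult spermatocytes the order of the means was Ccna1, Ccnb2, Cdk2, Cdk1, Ccnb1, Ccne2, Ccne1, Cdc25c, Ccna2 and Ccnb3, where Cdc25c and Ccna2 overlapped between samples. Ccna1 thus went from the last place to the first, and Ccna2 from the fourth place to the ninth. The adult and juvenile values come from separate tables. The samples differ in age, in cell separation and in spermatid marker transcripts, so the values are set side by side with no test.

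The other genes that act on these kinases were read from 4 lists of 27 genes, of which 26 were tested and Wee2 was under 3 TPM in every mouse. From 8 to 18 dpp 14 of the 26 rose, where 31.8% of all genes rose, and 8 fell, where 36.3% of all genes fell, and their median log2 fold change was 0.30. The same shares of all genes stand behind the counts of each list, which are small and were not tested as lists. Among the CDK activators 5 of 9 rose, and 3 of these by far the most. Hspa2, a spermatocyte chaperone of CDK1, rose from 35.0 ± 3.35 to 838 ± 172 TPM (4.52 ± 0.18, adjusted p = 4.09e-17). Spdya, which encodes a cyclin-independent activator of CDK2 at telomeres, rose from 8.92 ± 0.932 to 94.7 ± 20.4 TPM (3.25 ± 0.19, adjusted p = 6.46e-14). Cks2, a small CDK-binding subunit, rose from 88.0 ± 14.6 to 383 ± 23.0 TPM (2.12 ± 0.14), while its paralog Cks1b fell from 78.4 ± 6.49 to 52.8 ± 7.23 TPM (-0.57 ± 0.10) and was at 6.79 ± 0.853 TPM in adult cells. Ccnh and Mnat1, subunits of the CDK-activating kinase, rose by 0.23 and 0.38, and the phosphatase gene Cdc25b fell by 0.87 on the log2 scale, to 0.475 ± 0.368 TPM in adult cells.

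Among the inhibitors of the kinases, Pkmyt1 rose from 14.1 ± 0.821 to 58.3 ± 4.24 TPM (1.97 ± 0.15, adjusted p = 3.97e-12) and Inca1 by 0.72 ± 0.16, while Wee1 fell by 0.61 on the log2 scale (SE 0.08, adjusted p = 1.90e-07). Of the 8 genes of cyclin destruction 4 rose and 4 fell, a split from which nothing is read beside the 31.8% and 36.3% of all genes. Fbxo43, an inhibitor of the anaphase-promoting complex in meiosis, rose from 0.390 ± 0.0700 to 18.3 ± 6.85 TPM (3.72 ± 0.24) and had 47.5 ± 2.68 TPM in adult cells. Its mitotic paralog Fbxo5 fell from 14.9 ± 2.83 to 9.33 ± 2.47 TPM (-0.64 ± 0.17) and had 1.43 ± 0.374 TPM in adult cells. Cdc20 and Fzr1, which bring substrates to that complex, rose by 1.26 and 0.51 and the F-box gene Fbxw7 by 0.36, and Skp2, Ccnf and Ube2c fell by 1.04, 0.51 and 0.35 on the log2 scale. Among the transcription regulators of G2/M genes, Mybl1, the A-MYB factor of pachytene spermatocytes, rose from 12.2 ± 0.546 to 47.7 ± 7.64 TPM (1.87 ± 0.14). Lin52 and Lin9 rose by 1.17 and 1.08, and Mybl2, the B-MYB factor of cycling cells, fell from 26.8 ± 1.06 to 12.6 ± 1.64 TPM (-1.04 ± 0.11).

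**Figure D5:**
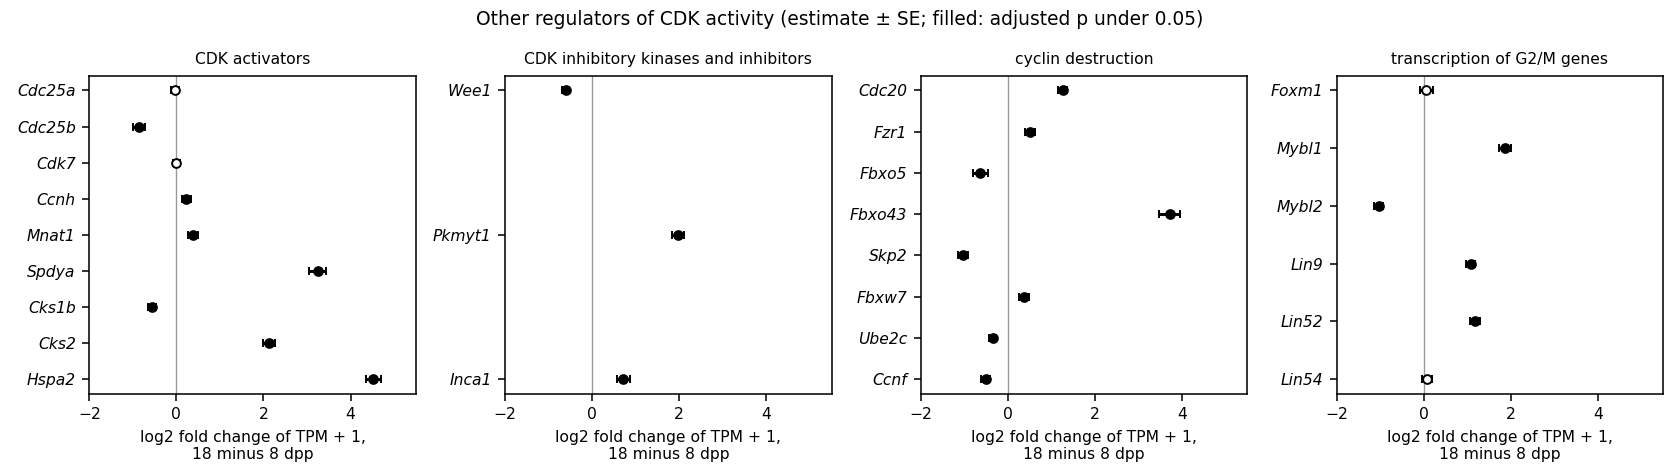
Log2 fold change of TPM + 1 from 8 to 18 dpp (horizontal axes, estimate ± SE) of 26 other regulators of CDK activity in 4 lists, with filled points for adjusted p-values under 0.05. Some paralogs part in 3 lists: Cks2 (2.12) and Cks1b (-0.57), Fbxo43 (3.72) and Fbxo5 (-0.64), Mybl1 (1.87) and Mybl2 (-1.04). Other related genes do not: Cdc20 (1.26) and Fzr1 (0.51) both rose, and Cdc25b (-0.87) fell while Cdc25a (-0.03) did not pass.

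For 3 members the genes of most similar course were looked up among 14895 genes with a symbol, by Pearson's correlation of log2(TPM + 1) over the 28 mice. The genes closest to Ccna1 were 4930590J08Rik (r = 0.992), Galntl6 (0.992) and Abca15 (0.990), all under 0.15 TPM on average up to 14 dpp. Closest to Ccna2 were Nxf2 (0.955), Gatad2a (0.952) and Acot9 (0.950). Closest to Ccnb3 were Sdk1 (0.914), Dmc1 (0.908), which encodes the meiotic strand exchange protein, and Gm364 (0.897). With each age's mean removed the correlations were between 0.897 and 0.949 for the genes closest to Ccna1, and between 0.755 and 0.829 for the other 6. Ccna1 itself had r = 0.950 with Ccnb2 and -0.898 with Ccna2 over the 28 mice, and 0.580 and -0.745 with each age's mean removed. Within ages Ccna1 was most spread at 18 dpp (SD 43.7 TPM, against 3.27 TPM at 16 dpp), where mice 1 to 3 and mice 4 and 5 stood apart. How far its correlations with the age means removed rest on that split was not tested. All points share their mice and their libraries, so these values describe the samples and were not tested.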

How the data were processed

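Poly-A RNA-seq of 28 juvenile mice (8 to 18 dpp) and 4 adult samples was used. The authors prepared TruSeq libraries, sequenced 100 bp paired-end reads, merged 2 lanes, aligned with Bowtie 1.0.0 to Ensembl release 75 (GRCm38), NONCODE 4 and an index of 214 piRNA precursors. Their TPM values are estimates of RSEM 1.2.8. They deposited TPM per transcript for juvenile mice and TPM per gene for adult samples. The deposited juvenile gene table held other values, exp(log2(TPM + 1)) - 1, and was converted to TPM, after which 20288 of 20368 genes, all members included, were within 0.2 TPM of their summed transcripts. A column of the authors' substage assignments was not used. TPM keeps no depth, so no counting error is given.

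Groups came from the labels, and the 14 dpp mice titled 6 and 7 are mice 4 and 5. Each mouse was 1 replicate. Genes with at least 3 TPM in at least 1 mouse were tested. limma 3.58.1 in R 4.3.3 was fitted to log2(TPM + 1) with 6 age means and a variance trend, with Benjamini-Hochberg adjustment over all genes. Log2 ratios of paralogs, on TPM + 1, used two-sided exact permutation tests over mice, 6 pairs by 4 contrasts. Shares of transcripts were tested with limma in genes of at least 3 TPM on average in both groups with at least 2 transcripts of at least 1 TPM. The methods were tested on simulated data. Gene models were GENCODE M21 and promoters RefSeq, both GRCm38. Python 3.11.15 with pandas 2.3.3 was used otherwise, and BLAST+ searched transcripts of other genes with at least 90% identity over 200 bases.

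The members, the lists and the tests were chosen with earlier results of these data known. Every member is named, and of the other regulators the 2 largest rises and 2 largest falls per list and those that a count of 5 or fewer needed. The closest 3 genes by correlation were named for Ccna1, Ccna2 and Ccnb3. Alternatives covered the pseudocount, the filter, median-of-ratios factors, the variance prior, summed transcripts, a replicate block, subsets of mice and leaving out each sample.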

Additional observations from a re-analysis of the deposited data

Results flagged for a closer look

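Of 65 groups of 4 or 5 samples, each a member's TPM or the share of the long Cdk2 transcript at 1 age or in adult cells, 3 had 1 sample far from the others by Dixon's criterion. Chance flags about 1 in 20 such groups. Ccna2 in mouse 3 of 10 dpp was low at 48.3 TPM, where the other 4 mice had between 57.5 and 60.4 TPM. Ccne2 in mouse 1 of 16 dpp was high at 62.05 TPM, where the others had between 35.4 and 41.7 TPM. The same mouse had the long form at 39.2% of Cdk2 TPM, where the others had between 29.2 and 30.0%. Its Sertoli cell sum was 5445 TPM, the lowest of the 5 mice of 16 dpp, and its Ccna1 and Ccnb2 values, 9.18 and 80.5 TPM, were the highest. The part of these in its Ccne2 value was not tested.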

How the results depend on the processing

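Under 8 other settings of the fit the number of members that differed among the ages was 9 or 10 and the number changed between 8 and 18 dpp 8 or 9, and none of the 10 fold changes from 8 to 18 dpp reversed. Mouse numbers did not pair the mice: deviations of same-numbered mice from their age means had a median correlation of 0.01 (65 pairs, from -0.25 to 0.25), and 6 of 28 mice correlated best with their own number. With the mouse number as a replicate block, 9 members changed between 8 and 18 dpp, 4 from 10 to 12 dpp, 3 from 14 to 16 dpp and 6 from 16 to 18 dpp, and the block changed no call. Leaving out each mouse gave 2 to 4 members between 10 and 12 dpp, 3 to 7 between 16 and 18 dpp and 0 to 2 called transcripts. Within mice 4 and 5 alone, chosen after seeing the data, limma called 2 members from 10 to 12 dpp and 0 from 16 to 18 dpp, where 4 had an unadjusted p under 0.05 and 1.33% of all genes passed. That setting has 2 mice per age. Leaving out each mouse moved the log2 ratio change of Ccnb3 to Ccnb1 between 0.58 and 0.87 (18 against 10 dpp) and between -0.0071 and 0.13 (16 against 14 dpp), and that of Ccnb2 to Ccnb1 between 0.25 and 0.34 (12 against 10 dpp). For Ccne2 to Ccne1 it was between 0.62 and 0.81 (18 against 10 dpp), -0.059 and 0.13 (12 against 10 dpp) and 0.16 and 0.38 (18 against 16 dpp), and for Cdk2 to Cdk1 between -0.29 and -0.19 (12 against 10 dpp). Ccnb3 to Ccnb1 (18 against 10 dpp) and Ccnb2 to Ccnb1 (12 against 10 dpp) passed with all mice (exact permutation, adjusted p = 0.0254 each). Each lost the call in 7 of 10 tests with 1 mouse left out. With 4 against 5 mice the smallest exact p is 0.0159. Mice 1 to 3 alone (smallest exact p 0.1) and sign flips over 5 pairs (0.0625) cannot pass, so neither can test the ratios. The mean over 5 pairs equals the difference of the means by construction and could not move. Within mice 1 to 3 all values moved by less than 1 SD, but these are 3 of the same 5 mice, so nothing is read from this. The cause of these changes was not tested. Ccnb1 has 5 pseudogenes at 94.4 to 99.2% identity, of which the 2 listed in the transcript table, Ccnb1-ps and Gm12856, had at most 0.32 and 0.42 TPM in any juvenile mouse and 0 in adult cells. Little was thus assigned to these 2. The other pseudogenes had no values, and how reads of such near-identical copies were divided was not tested.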
